A study of Mus musculus with 2 samples.

Results

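Lgr5, Smoc2 and Igfbp4 high cells were the 200 cells, of 2209 single cells from 2 libraries of Apc-mutant mouse intestinal organoids, with the highest sum of the deposited expression values of those 3 genes. Of these cells, 183 came from the 968 cells of the DMSO (vehicle) library and 17 from the 1241 cells of the DBZ library. Both libraries held intestinal organoids of strain C57Bl, with an age of 3-4 months and the same Apc-mutant genotype in the labels. DBZ inhibits gamma-secretase, the protease whose cut sets the intracellular domain of Notch free. The treatment text of both samples lists 300 nM 4-OH-tam and 10 uM DBZ, so the shared exposure to 4-OH-tam is as labelled, while the absence of DBZ from the vehicle library rests on its title. Each treatment was 1 library. Columns marked CTRL were read as DMSO and columns marked GSI as DBZ. The sources used here do not give the Apc allele, the driver of any recombinase or the number of animals or organoid lines pooled. Cells of 1 library are not replicates, so no difference below carries a test, and DBZ cannot be told apart from any other difference between the libraries.

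Lgr5 is a receptor for R-spondins that strengthens Wnt signalling and marks the crypt base columnar cells, the dividing stem cells of the intestine. Smoc2 encodes a secreted calcium-binding matrix protein and Igfbp4 a secreted protein that binds insulin-like growth factors, and both are part of the crypt base expression signature in mouse. Apc belongs to the complex that degrades beta-catenin, and its loss leaves Wnt target genes switched on without an outside Wnt signal. Notch signalling keeps crypt base cells out of the secretory fates (Paneth, goblet and enteroendocrine cells).

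Lgr5 lies on chromosome 10 at 115450311-115587780 (minus strand), Smoc2 on chromosome 17 at 14279506-14404790 (plus strand) and Igfbp4 on chromosome 11 at 99041244-99054392 (plus strand), in GENCODE M21 on GRCm38, the assembly also called mm10; all 3 are protein-coding. Besides the rule genes, the genes highest in the chosen cells of both libraries began with Ifi27l2b, F3, Amica1, Cftr, Clic6 and Clca3b. RefSeq promoters (GRCm38.p6) were matched for 4 of these 9 genes. The 250 bases before their starts are shown because the mean levels of these genes were higher in members of both libraries. For Igfbp4 this follows from the rule. In DBZ members 1 cell gave 72.9% of the Cftr level, 60.4% of F3 and 49.0% of Clca3b. Without that cell the DBZ log2 changes were 0.09, 0.74 and 0.18. Capitals mark CTTTGA or CTTTGT on either strand, the core letters that the beta-catenin partners of the TCF family bind. The windows are chr11:99040994-99041243 (plus strand) for Igfbp4, chr3:121723287-121723536 (plus) for F3, chr6:18170437-18170686 (plus) for Cftr and chr3:144849303-144849552 (minus) for Clca3b.
Igfbp4: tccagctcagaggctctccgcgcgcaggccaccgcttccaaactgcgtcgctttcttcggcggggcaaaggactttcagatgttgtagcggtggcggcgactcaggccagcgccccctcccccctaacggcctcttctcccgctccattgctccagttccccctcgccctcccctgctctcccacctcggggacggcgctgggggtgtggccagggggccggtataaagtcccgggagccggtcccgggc
F3: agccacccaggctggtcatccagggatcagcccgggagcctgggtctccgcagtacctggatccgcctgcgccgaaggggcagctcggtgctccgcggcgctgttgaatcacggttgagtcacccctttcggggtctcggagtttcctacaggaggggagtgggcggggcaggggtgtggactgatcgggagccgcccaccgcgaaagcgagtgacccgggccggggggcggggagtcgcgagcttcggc
Cftr: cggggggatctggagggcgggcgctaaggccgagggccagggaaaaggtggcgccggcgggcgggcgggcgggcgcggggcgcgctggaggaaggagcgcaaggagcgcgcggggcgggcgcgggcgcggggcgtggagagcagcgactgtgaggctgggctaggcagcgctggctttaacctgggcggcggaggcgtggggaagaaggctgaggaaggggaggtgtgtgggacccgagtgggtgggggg
Clca3b: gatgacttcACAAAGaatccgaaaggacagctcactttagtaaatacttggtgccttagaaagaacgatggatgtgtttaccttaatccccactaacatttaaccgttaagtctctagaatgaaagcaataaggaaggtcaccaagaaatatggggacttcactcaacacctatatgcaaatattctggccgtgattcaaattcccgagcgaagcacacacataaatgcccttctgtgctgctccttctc
Clca3b held 1 match, the letters ACAAAG from position 10 of the window, and Igfbp4, F3 and Cftr held none. Either motif occurred in 27.6% of all 32851 promoter windows of the same length, so 1 in 4 is near the general share. A match describes letters only, and no match says only that these letters are not in this window.

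The chosen cells were the upper end of a continuous range rather than a separate cluster of sums. The sum of natural log values was 3.7215 in the last cell inside and 3.71916 in the first cell outside, and 18 cells lay within 0.1 of the limit on each side. The median sum was 4.39 among members and 1.38 among the remaining cells. The highest DMSO cell reached 6.17 and the highest DBZ cell 4.87.

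**Figure D1:**
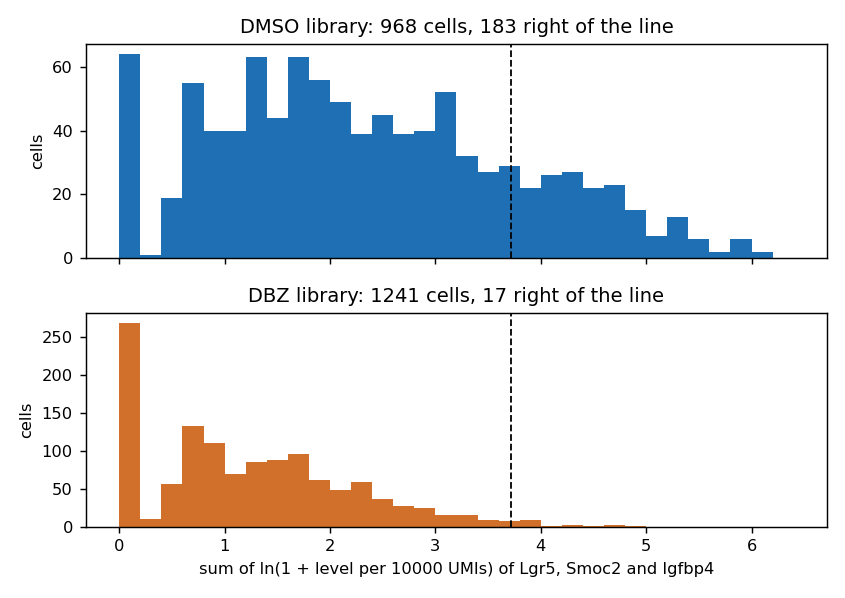
Histogram of the sum of ln(1 + level per 10000 UMIs) of Lgr5, Smoc2 and Igfbp4 (horizontal axis) against the number of cells (vertical axis, a separate scale for each library); the dashed line is the limit at 3.7215. No gap separates the 200 cells from the rest, and 183 DMSO cells but 17 DBZ cells lie to its right.

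Members made up 18.9% of the DMSO library (95% exact Clopper-Pearson interval 16.5 to 21.5) and 1.37% of the DBZ library (0.800 to 2.18). These intervals, like all others here, cover counting error only. DMSO cells were 91.5% of the members and 43.8% of all cells. The DMSO share of the members was 96% when 100 cells were chosen, 81.8% when 400 were chosen and 80% when cells with a UMI of Mki67, Top2a or Ccnb1 were left out first. All of these shares are descriptions of the values that the rule itself used.

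Depth moved with membership in the DMSO library. A UMI (unique molecular identifier) marks 1 captured RNA molecule. DMSO members had a median of 14386 UMIs (6044 to 51526) and the remaining DMSO cells 10601; DBZ members had 11821 and the remaining DBZ cells 10892.5. The median mitochondrial share of UMIs was 4.30% in DMSO members and 4.44% in the other DMSO cells, and the ribosomal protein share 27.9% and 24.8%. The 2 libraries shared 3 cell barcodes, none of them in a member. Markers of other tissues were scarce: the table held 3 of 10 fibroblast genes, 1 of 11 immune genes and 2 of 7 endothelial genes, among them Vim and Cd68, and no value of Col1a1, Pdgfra, Ptprc or Cdh5 was analysed here. The summed fibroblast list, nearly all Vim, ranged from 0 to 50.2 per 10000 UMIs in DMSO members and from 0 to 102 in the other DMSO cells. The part of depth in the results below was addressed by thinning each cell to 5000 UMIs, and those values are given where they bear on a result. Shares of cells after thinning refer to the same members. Log2 changes and medians after thinning refer to 200 cells chosen anew, 144 of them members.

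Smoc2 led the sum in most members. Levels are given as UMIs per 10000 UMIs of the cell, with the lowest, median and highest cell. Smoc2 was at 0, 6.25 and 17.3 in the 183 DMSO members and at 0, 1.02 and 18.2 in the 785 remaining DMSO cells, with means of 6.71 and 1.56. The ranges overlapped fully, since a cell high in Smoc2 alone did not reach the limit. Smoc2 was the most abundant of the 3 genes in 130 DMSO members, Igfbp4 in 28 and Lgr5 in 25.

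Lgr5 was at 0, 2.84 and 10.9 in DMSO members and at 0, 0.465 and 6.69 in the remaining DMSO cells, with means of 3.21 ± 1.89 (SD over cells) and 0.90 ± 1.19. Igfbp4 was at 0, 2.64 and 12.4 in DMSO members against 0, 0.934 and 13.4, with means of 2.99 and 1.42. At least 1 UMI of each of the 3 genes was present in 171 of 183 DMSO members and in 19.7% of the remaining DMSO cells.

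The 17 DBZ members were less uniform in the 3 genes. Lgr5 was at 0.688, 2.91 and 11.0 in them (mean 4.19) and at 0, 0.568 and 11.1 in the remaining 1224 DBZ cells (mean 1.03). Smoc2 averaged 5.44 against 0.98, and Igfbp4 2.43 against 0.41. Igfbp4 was seen in 11 of the 17 cells and all 3 genes in 10.

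**Figure D2:**
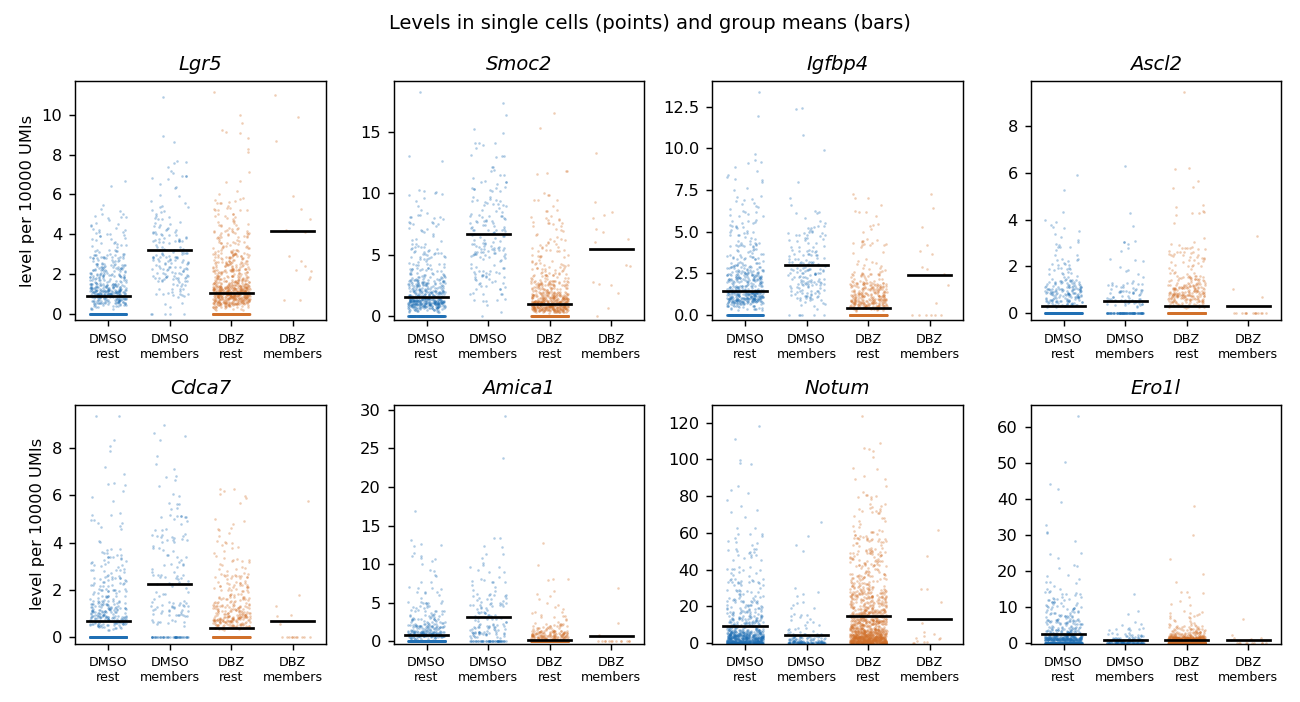
Levels per 10000 UMIs (vertical axes, a separate scale for each gene) of 8 genes in single cells (points) of the remaining cells and the members of each library; black bars are group means. The 3 rule genes and Ascl2 are in the top row, and in DMSO members Cdca7 and Amica1 sit higher and Notum and Ero1l lower than in the remaining DMSO cells.

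To describe how the 3 genes went together, each was left out in turn and 200 cells were chosen on the other 2. Of these cells 145 were members without Lgr5 in the choice, 131 without Smoc2 and 136 without Igfbp4. All 3 are genes of the rule, so the values describe them and are no independent support for the group. In the DMSO library Lgr5 then averaged 2.29 in the chosen cells and 1.11 in the rest, and Smoc2 4.46 and 2.13. Both were about as far apart, with log2 changes of 1.02 and 1.05. The log2 ratios of pooled UMIs were 1.04 (95% counting interval 0.89 to 1.18) and 0.94 (0.83 to 1.04). Igfbp4 averaged 1.89 in DMSO cells chosen on Lgr5 and Smoc2 against 1.68 in the rest, a log2 change of 0.16. Its pooled log2 ratio was 0.13 (-0.02 to 0.27). Igfbp4 thus hardly followed the other pair in DMSO cells.

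The DBZ library showed less of this. Lgr5 averaged 1.11 in 17 DBZ cells chosen on Smoc2 and Igfbp4 and 1.07 in the rest, and Smoc2 averaged 1.32 in 34 cells chosen without it and 1.03 in the rest. Igfbp4 averaged 0.25 in 38 DBZ cells chosen on Lgr5 and Smoc2 and 0.45 in the rest, a log2 change of -0.74. Its pooled log2 ratio was -0.95 (-1.91 to -0.14). Lgr5 and Smoc2 were thus higher in DMSO cells chosen without them, while in the DBZ library none of the 3 genes was past 1.5-fold higher in cells chosen on the other 2.

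The choice picks up cells in which sampling happened to give a high count, so levels were also read in UMIs that took no part in it. Each cell's UMIs were split at random, 200 cells were chosen on 1 part, and 153 of them were among the members. In the unused part, Smoc2 averaged 5.98 in the 175 chosen DMSO cells against 6.64 in the part used for the choice and 1.82 in the remaining cells. Lgr5 averaged 2.76 against 3.40 in the part used, and 1.09 in the remaining cells. Igfbp4 averaged 2.57 against 3.40, and 1.45 in the remaining cells. In the 25 chosen DBZ cells the levels dropped further, for Smoc2 to 3.71 from 6.24 and for Lgr5 to 2.55 from 3.86, with 0.95 and 1.00 in the remaining DBZ cells. Each of the 3 genes was still higher in the chosen cells of both libraries in the molecules that had not chosen them. Both parts came from the same cells and the same 3 genes were read. Any gene whose level varies between cells would come out higher in this way, so the result is no independent support for the group.

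Ascl2, a transcription factor of crypt base stem cells and the only marker in the label that the rule did not use, was higher in DMSO members. It was at 0, 0 and 6.32 in DMSO members and at 0, 0 and 5.91 in the remaining DMSO cells, with means of 0.53 ± 0.90 and 0.32 ± 0.72 (SD over cells). At least 1 UMI was seen in 44.8% of DMSO members and 25.6% of the other DMSO cells, and in 19.1% and 12.1% after thinning to 5000 UMIs. The log2 change, taken throughout on mean level + 0.05 with each cell weighted equally, was 0.65 (pooled UMI interval 0.45 to 1.00). In 50 DMSO cells highest in enteroendocrine markers, which should lack the gene, the share was 16% before thinning, at a median of 8231 UMIs, and 6% after it.

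In the DBZ library Ascl2 was seen in 3 of 17 members and in 21.3% of the other cells, with means of 0.30 and 0.29. Among the 100 highest cells of the DBZ library, a wider choice, it averaged 0.47 and the log2 change was 0.67. The marker that the rule did not use was thus higher in DMSO members and not in the 17 DBZ members, which are called here only by the rule. Olfm4, another crypt base marker in mouse, was seen in 5 DMSO members, 2 remaining DMSO cells and no DBZ cell, and Lgr5 itself was seen in 46% of the 50 endocrine-marker DMSO cells, of which 5 were members.

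Genes of the crypt base signature were unevenly higher in DMSO members. Of 34 tested genes of the list (seen in at least 5% of all cells, rule genes left out), 24 were higher and 10 lower, with a median log2 change of 0.13 against -0.03 over all 10132 genes tested. Past 1.5-fold, 9 were higher and 1 was lower, where 2.81% of all genes tested were higher and 5.91% lower by as much. Over all genes, 46.2% were higher and 53.8% lower by any amount in DMSO members.

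Cdca7, a Myc-responsive gene that acts with the chromatin remodeller Hells, had the largest change of the list. It was at 0, 1.43 and 8.97 in DMSO members and at 0, 0 and 9.39 in the remaining DMSO cells, with means of 2.24 and 0.66 and a log2 change of 1.70. Thinning left it in 53.6% of members and 21.4% of the rest. Aqp4, a water channel, averaged 0.39 against 0.12 (1.37), and it was seen in 71 DMSO members but in none of the 17 DBZ members and 16 of the other DBZ cells. Both genes thus separated DMSO members more than Ascl2 did.

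Further genes of the signature followed. Slc12a2, a sodium, potassium and chloride cotransporter, averaged 2.76 in DMSO members and 1.64 in the rest (log2 change 0.74), and the potassium channel Kcnq1 0.66 and 0.34 (0.86). Soat1, which esterifies cholesterol, averaged 1.22 and 0.71 (0.74). The serine protease Prss23 changed by 0.88 and Lrig1, a brake on ErbB receptors, by 0.72. These 5 genes and Rgmb, a BMP coreceptor at 0.55, all had counting intervals above 0.

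Other genes of the same signature did not follow or were higher by less. Axin2, a scaffold of the beta-catenin degrading complex and a general Wnt target, averaged 2.34 in DMSO members and 2.84 in the rest (-0.27), and Sox9 averaged 2.72 and 3.41 (-0.32). Phlda1 was higher by less than the genes above, at 12.9 and 10.7 (0.26). Nrn1 was the only gene of the list past 1.5-fold lower, at 0.037 and 0.14. In the 100 highest DBZ cells 26 of the 34 genes were higher, with a median of 0.22, where 52.2% of all genes were higher and 47.8% lower.

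Secreted and nuclear members of the Wnt feedback loop were mostly lower in DMSO members, in the same cells that were high in Lgr5. Of 13 tested genes 9 were lower and 4 higher, where 53.8% of all genes were lower, and the median was -0.40. Past 1.5-fold, 5 were lower and 2 higher, where 5.91% of all genes were lower and 2.81% higher. The 2 higher were Sfrp5 and Ascl2, which is on both lists. Notum, an esterase that removes the lipid from Wnt proteins, was at 0, 0.928 and 66.2 in DMSO members and at 0, 3.41 and 118 in the remaining DMSO cells. Its means were 4.49 and 9.36, a log2 change of -1.05, and it was seen in 67.8% and 83.7% of cells.

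Wif1, a secreted protein that binds Wnt ligands, was seen in 13 of 183 DMSO members and in 24.7% of the rest, with means of 0.20 and 0.80 (-1.76). Dkk3, of the Dickkopf family, averaged 0.71 and 1.51 (-1.04). The transcription factors Sp5 and Lef1 changed by -0.77 and -0.81, and Nkd1, which binds Dishevelled, by -0.40. Sfrp5, a secreted Frizzled-related protein, went the other way, at 0.68 against 0.16 (1.80) and in 44.8% against 13.0% of cells. The growth-type targets had a median of -0.11, with 10 of 14 genes lower, where 53.8% of all genes were lower. Myc stood at 1.13 and 1.16, and Ccnd1 at 1.13 and 1.15.

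In the DBZ library the feedback genes were near the level of the rest: their median was -0.10 in the 17 members and 0.01 in the 100 highest cells. Notum averaged 13.3 in DBZ members and 14.9 in the other DBZ cells (-0.16), both above the DMSO groups. The DMSO median of this list stayed below 0 under all 18 other settings tried.

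**Figure D3:**
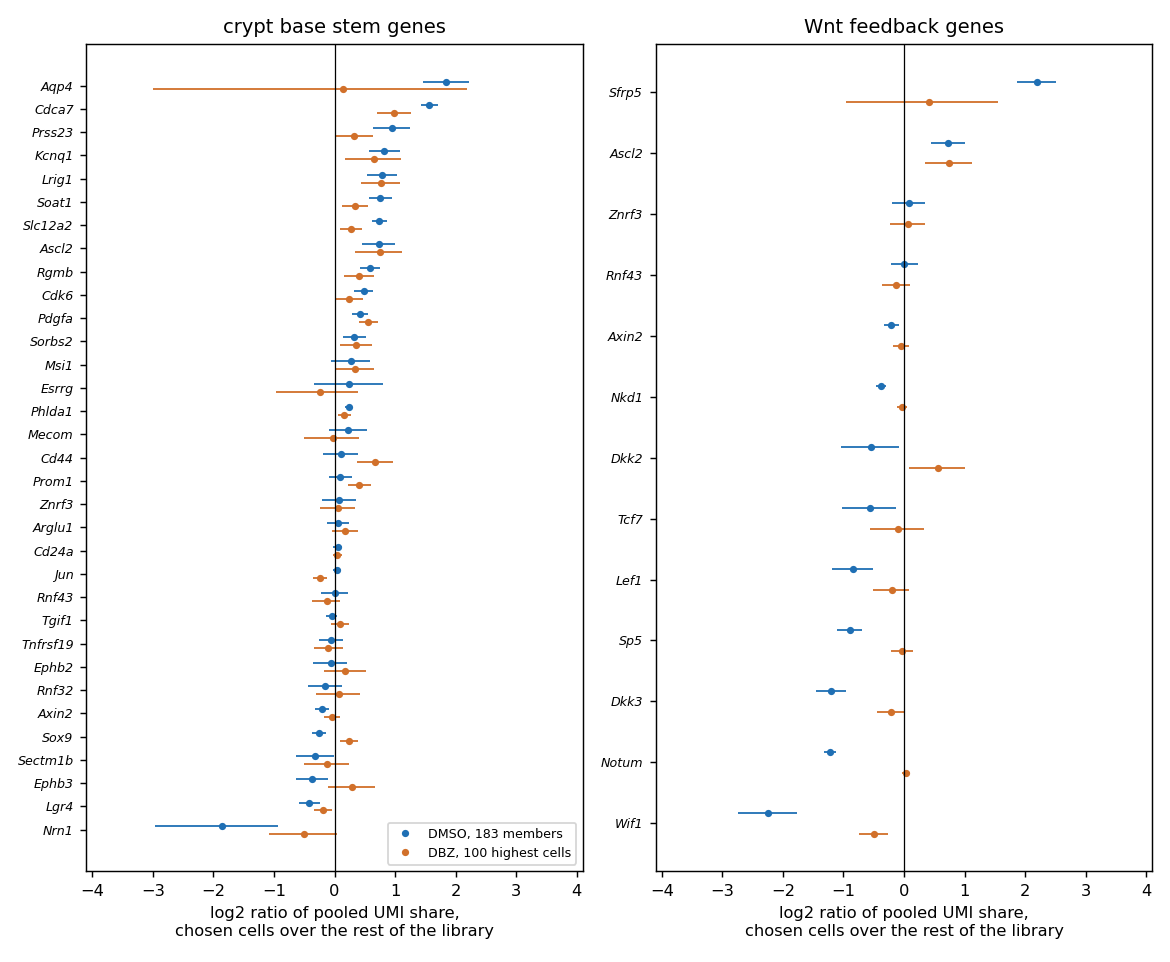
Log2 ratio of pooled UMI share (horizontal axis) of chosen cells over the rest of their library, for tested genes of the crypt base stem list (left) and the Wnt feedback list (right); points are ratios and lines 95% counting intervals, for the 183 DMSO members and the 100 highest DBZ cells. Cdca7 and Aqp4 lead the left panel in DMSO, while Wif1, Notum and Dkk3 lie lowest in the right panel and the DBZ points of that panel lie closer to 0.

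Genes of DNA replication and mitosis were higher in DMSO members. All 24 mitosis genes tested were higher, 10 of them past 1.5-fold, with a median of 0.56. Of 28 replication genes 27 were higher, 18 past 1.5-fold, with a median of 0.62. Over all genes tested, 46.2% were higher by any amount in DMSO members and 2.81% past 1.5-fold higher. Mcm6, a subunit of the replicative helicase, averaged 0.85 and 0.41 (log2 change 0.96), Dut, which keeps uracil out of DNA, 1.43 and 0.74 (0.90), and Pcna, the sliding clamp, 1.43 and 1.00 (0.49). Top2a, a topoisomerase of dividing cells, averaged 1.63 and 0.97 (0.72), and Mki67 0.44 and 0.28 (0.57). A UMI of Mki67, Top2a or Ccnb1 was present in 45.4% of DMSO members (38.0 to 52.9) and 30.7% of the rest (27.5 to 34.1).

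After thinning, the 2 shares were 33.9% and 23.6%. Of the DMSO members 21.9% were among the 200 cells highest in DNA replication genes, against 10.4% of the rest, and 20.8% and 10.8% after thinning. Among cells above their library's median depth, the mitosis median was 0.16 and the replication median 0.52; that setting also chose other cells, with 129 of the members kept. On Lgr5 and Igfbp4 alone the medians were 0.20 and 0.28, and after thinning 0.34 and 0.41. These 2 settings chose other cells as well, with 131 and 144 of the members kept, so depth and membership changed together. Ribosome biogenesis genes were higher too, 21 of 23 with a median of 0.29, where 46.2% of all genes were higher. Among them were the nucleolar proteins Npm1 (0.42) and Ncl (0.49) and the pseudouridine synthase Dkc1 (0.70). The 17 DBZ members held the Mki67, Top2a or Ccnb1 UMIs in 29.4% of cells against 28.6% of the rest, and their medians were -0.36 for mitosis and -0.13 for replication. In the 100 highest DBZ cells these medians were 0.27 and 0.67, with all 28 replication genes higher, where 52.2% of all genes were higher.

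Genes of hypoxia and glycolysis were lower in DMSO members, 18 of 18 tested, 8 of them past 1.5-fold, with a median of -0.50. Over all genes tested, 53.8% were lower by any amount and 5.91% past 1.5-fold lower. Ero1l, an oxidase of the endoplasmic reticulum, was at 0, 0 and 13.5 in DMSO members and at 0, 0.774 and 63.2 in the rest, with means of 0.83 and 2.55 (-1.57). Egln3, a prolyl hydroxylase that marks hypoxia-inducible factors, averaged 0.32 and 0.81 (-1.21), and the carbonic anhydrase Car9 1.12 and 2.04 (-0.84). Bnip3, a mitochondrial receptor for autophagy, changed by -0.83. The abundant glycolytic enzymes were lower by less: Aldoa averaged 14.2 and 21.7 (-0.61) and Gapdh 16.4 and 21.8 (-0.41). In DBZ members 8 genes of the list were lower and 10 higher, with a median of 0.04 against -0.06 over all genes tested. In the 100 highest DBZ cells 13 of 18 were lower, with a median of -0.11, where 47.8% of all genes were lower.

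Of 12 p53 targets 10 were lower in DMSO members, with a median of -0.36. The YAP and regenerative list was mixed, with 9 of 15 genes lower, where 53.8% of all genes were lower, a median of -0.35, and a summed level of 29.6 in members and 26.9 in the rest. The interleukin Il33 averaged 0.48 and 1.34 (-1.39), and the EGF receptor ligand Areg 1.05 and 2.45 (-1.19). Gdf15, a secreted stress cytokine, changed by -1.05, the cell cycle inhibitor Cdkn1a by -0.60 and Pmp22, a membrane protein, by -2.50. The intermediate filament gene Vim averaged 6.80 and 12.8 (-0.91). Hbegf, another EGF receptor ligand, was higher at 5.27 against 3.41 (0.62).

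A group of cells high in Amica1, Fgfbp1, Sfrp5 and Ifi27l2b overlapped with the members more than any other group of 200 cells compared here. This gene group was drawn from earlier results on the same cells, so its agreement is not independent. Of the DMSO members, 95 (51.9%, interval 44.4 to 59.3) were among the 200 cells highest in those 4 genes, as were 11.1% of the remaining DMSO cells. Those 95 cells are 52.2% of the 182 DMSO cells of that group. In contrast 3.83% of DMSO members, against 20.8% of the rest, were among the 200 cells highest in Gdf15, Areg and their partners.

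**Figure D4:**
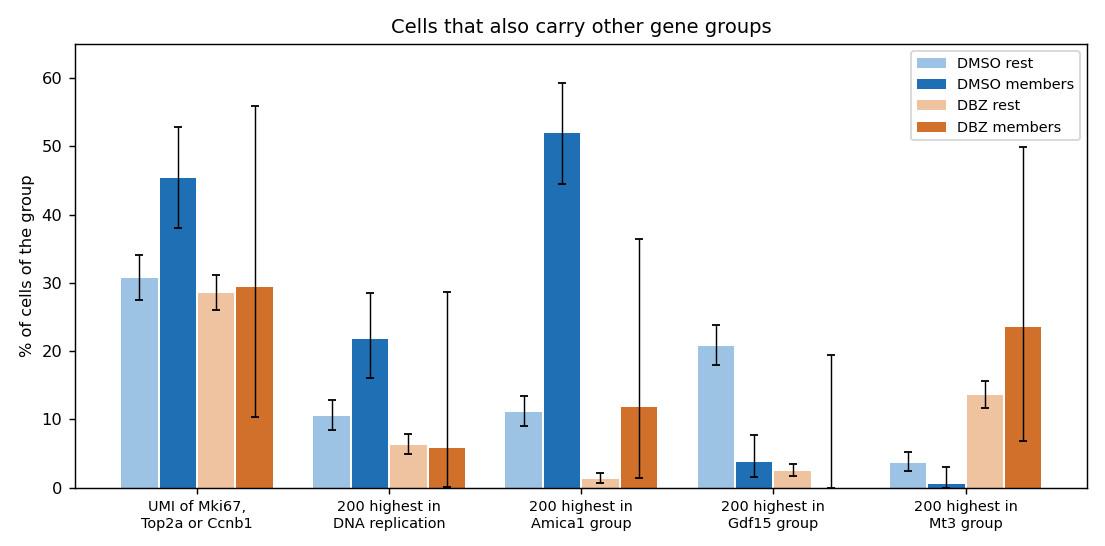
Share of each group's cells (vertical axis, percent) that had a UMI of Mki67, Top2a or Ccnb1 or were among the 200 cells highest in 4 other gene groups; error lines are 95% exact binomial intervals, for counting error only. DMSO members (dark blue) stand highest for the Amica1 group at 51.9%, and the intervals of the 17 DBZ members are wide.

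Genes past 1.5-fold in the same direction in both libraries numbered 72 higher (0.711% of those tested) and 211 lower (2.08%), and 118 (1.16%) went in opposite directions. Within the DBZ library 10.9% of genes were past 1.5-fold higher and 20.8% lower in the 17 members, against 2.88% higher in the 100 highest cells, so single DBZ values below rest on few cells. Ranked by the smaller of both changes, the 15 highest genes ranged from 0.84 to 1.82 in DMSO. Of these 15, 6 kept a 1.5-fold DBZ difference without the highest DBZ member, 11 in the 100 highest DBZ cells and 14 in the 100 highest DMSO cells.

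Amica1, which encodes a junctional adhesion protein, was at 0, 1.80 and 29.2 in DMSO members and at 0, 0 and 16.8 in the remaining DMSO cells, with means of 3.18 and 0.87 (log2 change 1.82). In DBZ members it was seen in 4 of 17 cells, averaged 0.64 against 0.23, and drew 63.9% of its summed level from 1 cell; after thinning its DBZ change was -0.49. Ifi27l2b, an interferon-inducible gene, averaged 0.51 and 0.12 in DMSO (1.71); in DBZ members it averaged 0.22 against 0.043, with 81.0% from 1 cell and a log2 change of 0.0033 without it. In DMSO, Fgfbp1, a carrier of fibroblast growth factors, averaged 1.26 and 0.47 (1.34). F3, tissue factor, the starter of blood clotting, averaged 1.30 and 0.48 in DMSO (1.35) and 1.35 and 0.32 in DBZ (1.92), where 60.4% came from 1 cell.

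Cftr, the chloride channel mutated in cystic fibrosis, averaged 0.31 and 0.090 in DMSO (1.35) and was seen in 34.4% and 11.2% of cells. Clca3b, of the family of calcium-activated chloride channel regulators, averaged 1.43 and 0.45 (1.56), and Clic6, an intracellular chloride channel protein, 0.34 and 0.13 (1.11). In DBZ members Cftr averaged 0.14 against 0.036, Clca3b 0.93 against 0.44 and Clic6 0.17 against 0.056, and without the highest cell the log2 changes were 0.09, 0.18 and 0.50; after thinning the DBZ change of Clca3b was -0.34. The other genes of the 15 were Atp2c2, Cdo1, Rgcc, Psmb10, Myl9, Kcnq1, Mettl20, Acot1 and Rnase4, with DMSO changes from 0.84 to 1.32. Rnase4 was the most often seen of them in DBZ members, in 11 of 17 cells at a mean of 2.93 against 0.89 (1.67).

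The 15 genes lowest in both libraries were Defa20, Reg4, Defa21, Defa22, Spink4, Defa17, Chgb, Defa5, Ghrl, Clps, Defa3, Chga, Bex2, Iapp and Pcsk1n, mostly products of Paneth and enteroendocrine cells. The Paneth list had a median of -1.75 in DMSO members, with 12 of 14 genes lower, and the enteroendocrine list -0.97, with 14 of 16 lower. Over all genes tested, 53.8% were lower and 46.2% higher by any amount in DMSO members. The goblet list was mixed, with 5 of 7 genes higher in DMSO members and a median of 0.33. For its member Tff3, 1 cell gave 61.4% of the level in DMSO members, and without that cell the log2 change was -1.18. For Guca2a 1 cell gave 79.5%, and the change without it was 0.48. In the 100 highest DMSO cells 3 of the 7 were higher, with a median of -0.14, where 47% of all genes were higher. Spink4, also of the goblet list, was among the 15 lowest. In the 100 highest DBZ cells 6 of the 7 goblet genes were lower, with a median of -0.74, where 47.8% of all genes were lower. Defa20, an alpha-defensin of Paneth cells, averaged 1.41 and 17.9 in DMSO (-3.62) and 3.60 and 73.5 in DBZ (-4.33). The alpha-defensins are near-identical copies whose reads may be split between them, so single members are uncertain.

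In the remaining DMSO cells a few cells held much of these levels, and in the remaining DBZ cells the 5 highest held a smaller share. Defa20 was seen in 56.8% of DMSO members and 56.1% of the rest, and 52.5% of its summed level in the rest came from 5 cells; Reg4 drew 95.1% from 5 cells. In the remaining DBZ cells, the 5 highest held 9.69% of Defa20 and 12.7% of Defa21. When the 20% of cells highest in secretory markers were left out before the choice, the Paneth median in DMSO turned to 0.16; that setting takes out the cells highest in these same genes by construction. Of the remaining DBZ cells 14.5% were among the 200 cells highest in Paneth markers, and of the 17 DBZ members 0, which allows a share of up to 19.5% (upper exact bound). For Defa20 in DBZ the change also turned, to 0.027, without those cells.

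Notch targets were not set apart in DMSO members, with 3 of 6 tested genes higher, 3 lower and a median of -0.10. Hes1, a repressor switched on by Notch, averaged 2.53 in DMSO members and 3.52 in the rest (-0.47). Hes6, counted here among the regulators of secretory fate and not among the Notch targets, averaged 3.42 and 5.11 (-0.57). Over all genes 53.8% were lower in DMSO members. In the BMP and TGF-beta list 10 of 13 genes were lower, among them Id1 (-0.47) and the decoy receptor Bambi (-0.87). Of 9 tested genes of the IGF system 7 were lower and 2 higher, with a median of -0.18, and 2 were past 1.5-fold lower; Igf1r, the receptor of the hormones that Igfbp4 binds, averaged 0.12 and 0.053 (0.69) and was the only one past 1.5-fold higher. Enterocyte genes were mixed, 7 higher and 3 lower, with the brush border protein Vil1 at 0.95 and 0.43 (1.07). Spry1, an inhibitor of receptor tyrosine kinase signalling, averaged 0.42 and 0.21 (0.87).

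**Figure D5:**
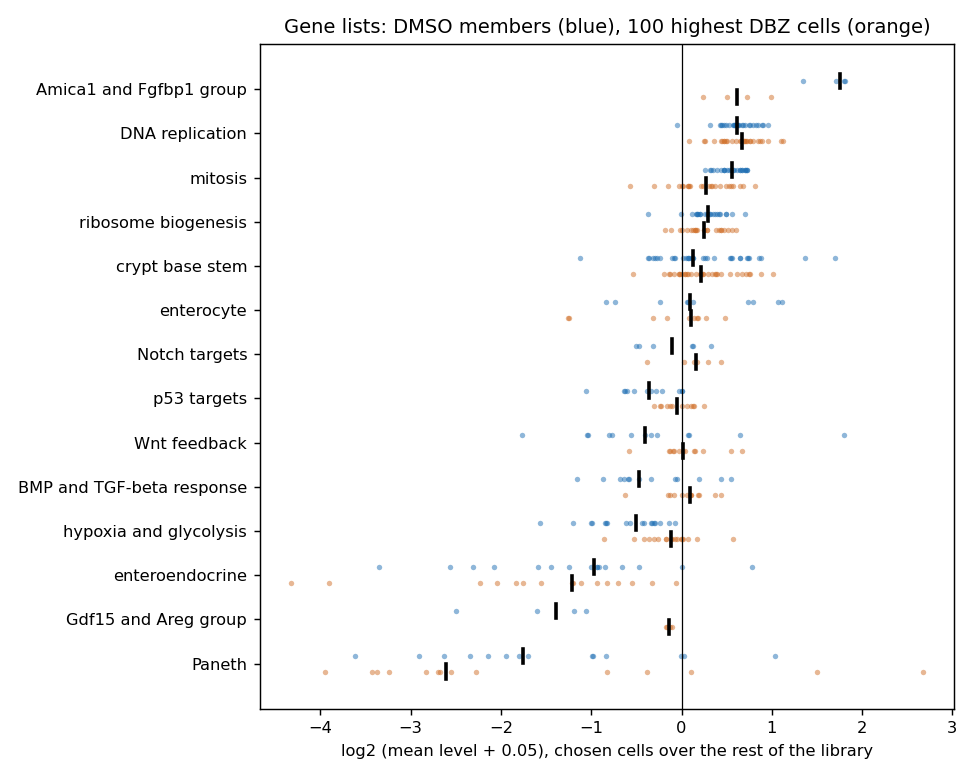
Log2 change of mean level + 0.05 (horizontal axis) in DMSO members (blue) and in the 100 highest DBZ cells (orange) over the rest of each library, for the tested genes (points) of 14 lists, with black bars at the list medians. DNA replication lies to the right in both libraries, the hypoxia and Wnt feedback medians lie further left in DMSO than in DBZ, and the secretory lists spread widely to the left.

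Spock2, a secreted proteoglycan, averaged 9.01 in DBZ members and 0.28 in DMSO members, and 3.25 and 1.10 in the remaining cells of each library. Mt3, a metallothionein, averaged 8.73 and 0.42, and 3.22 and 1.49 in the remaining cells. Both were therefore lower in members than in the rest in DMSO (-1.79 and -1.71) and higher in DBZ (1.46 and 1.43). Spock2 was seen in 7 of the 17 DBZ members, and 94.98% of its summed level there came from 5 of them.

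Sox17, a transcription factor of endoderm, was seen in 7 of 17 DBZ members and 8.42% of the other DBZ cells, with means of 1.30 and 0.13 (2.93), and still 1.53 without the highest cell. In DMSO members it averaged 0.041. H19, an imprinted noncoding RNA, averaged 2.44 and 0.47 in DBZ (2.26) but was in 3 of the 17 cells, with 83.4% from 1 cell. Mptx2, a pentraxin of Paneth cells, averaged 25.6 and 0.64 (5.21) with 99.8% from 1 cell, and without that cell the change was -2.72. In the other direction, Sfrp5, Fgfbp1 and Aqp4 had a UMI in 1, 2 and 0 of the 17 DBZ members. The other DBZ cells were low in them too, at 0.041, 0.063 and 0.014, so a difference from them was not detectable in 17 cells. A share of cells with a UMI is not a share of cells expressing the gene.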

How the data were processed

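Single cells of Apc-mutant organoids were captured on a droplet chip aiming at 3000 cells a sample, per the labels' protocols; the table held 968 DMSO and 1241 DBZ cells, and no further filter on cells was applied. Per the submitters' processing notes, the tools were Cell Ranger 2.1.1 and Seurat and the build mm10; the sources used here do not state normalization or filters. Natural log values were deposited by the authors, and they equalled ln(1 + 10000 x UMI share): all 7553435 values above 0 gave whole UMIs within 0.01. Totals were 13083018 UMIs (DMSO) and 16168229 (DBZ).

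The members and the 39 gene lists were chosen with earlier results of these data known. Mean levels per 10000 UMIs, plus a pseudocount of 0.05, were compared within each library for the 10132 of 13373 genes seen in at least 5% of cells, in Python 3.11.15 with numpy 2.4.6 and scipy 1.17.1. Pooled UMIs gave exact conditional 95% intervals. With 1 library a group and values deposited on a log scale, no count model or test across cells was run; a gene was called past 1.5-fold. No doublet caller was run, and doublets may remain; the sources used here do not say whether any were removed. Named genes were the 15 highest and 15 lowest by the smaller within-library change, leaving out Gm, Rik, mitochondrial and ribosomal genes and the rule genes, the 10 most different each way between DBZ and DMSO members, and the extremes of the lists described. Alternatives covered the number of members, the rule genes, the sum, thinning to 5000 UMIs, the UMI split, the pseudocount, the gene filter and cells left out. Some genes counted in the lists are not reported here by name. The calculation was tested on simulated data.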

Additional observations from a re-analysis of the deposited data

Results flagged for a closer look

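Of the genes given with both libraries, 4 were past 1.5-fold in opposite directions, with counting intervals on either side of 0; the difference between the libraries was not tested. Mptx2 changed by 5.21 in DBZ members and by -0.99 in DMSO members. Spock2 changed by 1.46 and -1.79, Mt3 by 1.43 and -1.71, and H19 by 2.26 and -1.34. The 17 DBZ members carry these values: without the highest DBZ cell the DBZ changes were -2.72 for Mptx2, 1.00 for Spock2, 0.27 for Mt3 and -0.12 for H19.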

How the results depend on the processing

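No paired analysis was possible because each treatment was 1 library. Over all settings, the DMSO medians kept their sign but ranged from 0.05 to 0.28 for crypt base stem, -0.50 to -0.17 for Wnt feedback, 0.28 to 0.71 for DNA replication, 0.01 to 0.62 for mitosis and -0.64 to -0.23 for hypoxia; the lowest mitosis value came without cells with a UMI of Mki67, Top2a or Ccnb1, which are mitosis genes. Genes past 1.5-fold in DMSO numbered 884, and 576 with 400 members, 425 on Lgr5 and Igfbp4 alone, 1593 with a pseudocount of 0.01 and 112 with 0.5. Genes past 1.5-fold in both libraries numbered 283, and 611 with 100 members, 167 with 400, 125 on Lgr5 and Igfbp4, 461 on Smoc2 and Igfbp4, 547 with a pseudocount of 0.01 and 30 with 0.5. The Paneth median of -1.75 was -1.03 with 400 members and after thinning, -0.62 on Lgr5 and Smoc2, -0.91 in the deeper cells, -0.76 with a pseudocount of 0.5 and 0.16 without secretory cells, which removes cells highest in these genes by construction. The enteroendocrine median of -0.97 was -1.84 on Lgr5 and Smoc2, -1.71 with a pseudocount of 0.01 and -0.28 with 0.5. The DMSO share of 91.5% was 96% with 100 members, 81.8% with 400, 83% on Lgr5 and Igfbp4 or on linear levels, 81% on Lgr5 and Smoc2, 85% in the deeper cells, 80% without cycling cells and 50% by construction with 100 cells a library.

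Single genes reversed as follows, and the cause was not tested. Without secretory cells in DMSO: Clps 0.73, Defa17 0.21, Defa21 0.20 and Defa22 0.13; in DBZ, Defa20 0.027 and Mptx2 -0.63. On Lgr5 and Smoc2 alone in DMSO: Defa17 0.47, Defa3 0.75 and Spink4 0.014; in DBZ, Igfbp4 -0.74 and Mptx2 -2.90. On Smoc2 and Igfbp4 in DBZ: H19 -2.77, Mt3 -2.84 and Spock2 -3.54. With 100 members in DBZ, of which 4 were DBZ cells: F3 -0.96, Mptx2 -4.37 and Mt3 -0.41. After thinning: Amica1 -0.49, Clca3b -0.34 and Mt3 -0.12 in DBZ, Mettl20 -0.017 in DMSO. In the deeper cells, Mt3 was -1.29 in DBZ and Reg4 0.14 in DMSO. Mptx2 in DBZ was -3.81 on Lgr5 and Igfbp4 and -2.69 in the unused UMIs. The number of DBZ members and the low counts of Ascl2, Cftr and Igf1r limit the precision.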

Other observations

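Several gene groups that bear on neither the signature nor the secretory fates were also described in DMSO members. Beside each count here, 53.8% of all genes tested were lower and 46.2% higher by any amount. Receptors and mediators of Wnt signalling were slightly lower, 9 of 12 tested genes with a median log2 change of -0.22. Lgr4, the close relative of Lgr5, averaged 1.32 in DMSO members and 1.73 in the remaining DMSO cells (-0.37), the Wnt coreceptor Lrp6 0.32 and 0.46 (-0.47), and Ctnnb1, which encodes beta-catenin, 3.45 and 4.01 (-0.21). None of the 12 was past 1.5-fold. Of 8 markers proposed for reserve stem cells in mouse 6 were lower and 2 higher, with a median of -0.18. Lrig1 was the only one past 1.5-fold, and Hopx stood at 1.21 and 1.23 and Bmi1 at 0.12 and 0.15.

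Cholesterol synthesis genes were lower in 15 of 19 cases, with a median of -0.25; the sterol demethylase Cyp51 averaged 0.88 and 1.41 (-0.66) and Fdps, which makes farnesyl diphosphate, 2.47 and 3.21 (-0.37). Among 9 cell cycle inhibitors 6 were lower, a count near the share of 53.8% over all genes. They included Cdkn1c at 0.98 and 1.90 (-0.93) and Btg1 at 6.66 and 9.36 (-0.49). Epithelial structure genes were split evenly, 8 higher and 8 lower. The claudin Cldn15 averaged 0.36 and 0.15 (1.03), the intestinal cadherin Cdh17 1.03 and 0.70 (0.52) and the adhesion protein Epcam 13.4 and 10.1 (0.41), while the keratin Krt8 stood at 21.7 and 19.9. Immediate early genes, which respond to handling as well as to growth signals, had a median of 0.01, with Fos at 10.7 and 8.74 (0.29) and Klf6 at 9.28 and 7.11 (0.38). Of 10 regulators of secretory fate 8 were lower, among them Klf4 (-0.53) and Xbp1 (-0.47).

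The 10 genes with the largest deficit in DBZ members against DMSO members were Ankrd1, Hist1h2ap, Arc, H2-Q10, Fgfbp1, Aqp4, Sfrp5, Tpx2, Rfc5 and Nt5c3b. In 17 cells a count of 0 says little: Tpx2, a spindle protein, was seen in none of the 17 and in 12.5% of the other DBZ cells.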
